A study of Mus musculus with 6 samples.

Results

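Clstn1 and Pik3cd are adjacent protein-coding genes of mouse chromosome 4 that point towards each other, and their transcription start sites are described here in mouse Ba/F3 pro-B cells, an established line, with 2 forms of mutant FLT3. The members were all deposited peaks that lie by position and strand in either gene, in the mm9 coordinates of the files. Plus-strand peaks from 148958000 to 149023000 were taken as Clstn1, and minus-strand peaks from 149022000 to 149100000 as Pik3cd. This gave 31 of the 158966 peaks of the series, 14 for Clstn1 and 17 for Pik3cd. The files name no genes, and the assignment was not checked against an annotation of mm9. A tag was seen in at least 1 library at 18 of the 31, and 13 held 0 tags in every library.

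The libraries were made by cap analysis of gene expression (CAGE), which reads RNA from its cap. A peak of tags is therefore taken here as a start site, and its height is not affected by the length of the transcript. Whether each peak inside a gene is a true start was not tested. In 3 libraries the cells carried FLT3-ITD/D835Y, an internal tandem duplication of the FLT3 receptor tyrosine kinase joined with D835Y, a substitution in the activation loop of the kinase. In the other 3 they carried the tandem duplication alone (FLT3-ITD). All cells are labelled as pro-B cells of BALB/c origin in a medium with serum, with no cytokine and no drug named, and the labels do not say how FLT3 was introduced, whether each line was 1 clone, or whether replicates were separate cultures. The mutation field of the labels gives the substituted position as a number that differs between the double-mutant samples, so groups were taken from the titles.

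Clstn1 encodes calsyntenin-1, a membrane protein with cadherin repeats that links kinesin light chains to transported vesicles and is best known from neurons. Pik3cd encodes the delta catalytic subunit of class IA phosphoinositide 3-kinase, which is found mainly in white blood cells. The enzyme adds a phosphate to a membrane lipid downstream of cytokine, growth factor and antigen receptors, which brings Akt to the membrane, and mutant FLT3 is known to signal in part through this route.

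The genes were chosen by their measured levels in the same libraries: the main Clstn1 start was among the promoters with the largest fall in the double mutant, while Pik3cd beside it remained active. Every comparison of the groups at these genes therefore repeats the contrast that chose them, and is given as a description with no test. Of the 31 peaks, 5 reached 1 CPM (tags scaled to a total of 1000000 per library) in at least 3 libraries, 2 of Clstn1 and 3 of Pik3cd. The Clstn1 peaks did so only through the FLT3-ITD libraries. In a fit of all promoters with limma (adjusted p under 0.05), 4 of these 5 were called, 1 higher and 3 lower in the double mutant, beside 24.4% of the 19162 promoters tested (14.1% higher and 10.4% lower). The groups did not overlap at the same number of the 5, beside 41.8% of the promoters tested (24.2% higher and 17.6% lower in the double mutant). Nothing is read from these counts.

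RefSeq (GRCm38.p6) lists 4 promoter windows for these genes, 1 for Clstn1 and 3 for Pik3cd, each with 250 bases before and 50 after the annotated start. That of Clstn1 and the annotated Pik3cd window furthest upstream are shown, as the promoters RefSeq gives for the 5′ end of each gene. They lie at chr4:149586218-149586517 on the plus strand and at chr4:149698659-149698958 on the minus strand of GRCm38.p6, which is not the build of the peaks. The windows were not placed on the measured peaks, and the Pik3cd window is not to be taken for the outer start described below. Capitals mark matches on either strand to the TATA box (TATAAA), the CCAAT box (CCAAT), the GC box (GGGCGG), the STAT motif (TTCNNNGAA), the E-box (CACGTG) and the YY1 motif (AAGATGGC). These motifs were picked with the sequences in view.
Clstn1: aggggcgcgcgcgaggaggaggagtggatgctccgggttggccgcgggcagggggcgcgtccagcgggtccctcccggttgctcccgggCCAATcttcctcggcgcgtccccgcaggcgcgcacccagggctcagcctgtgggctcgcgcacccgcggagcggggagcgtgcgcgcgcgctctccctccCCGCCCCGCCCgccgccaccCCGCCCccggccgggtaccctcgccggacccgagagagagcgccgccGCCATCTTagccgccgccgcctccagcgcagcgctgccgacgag
Pik3cd: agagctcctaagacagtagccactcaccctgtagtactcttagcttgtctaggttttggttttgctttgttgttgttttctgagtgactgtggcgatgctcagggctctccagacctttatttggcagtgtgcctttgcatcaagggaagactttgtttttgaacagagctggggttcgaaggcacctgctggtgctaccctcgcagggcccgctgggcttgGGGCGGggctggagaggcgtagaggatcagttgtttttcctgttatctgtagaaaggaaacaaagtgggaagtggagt
The Clstn1 window had 79.7% G and C and 48 CpG dinucleotides, against medians of 52.7% and 7 over 32851 promoter windows. It held 3 GC boxes, of which 2 overlap, 1 CCAAT box and 1 YY1 motif. A GC box was found in 35.7%, a CCAAT box in 37.4% and a YY1 motif in 2.75% of all windows. The Pik3cd window shown had 51.0% G and C, 6 CpG dinucleotides and 1 GC box. Of the Pik3cd windows not shown, the next had 68.0% G and C and 26 CpG dinucleotides, and the innermost 54.0% and 4. None of the 4 windows held a TATA box, a STAT motif or an E-box, which occurred in 13.6%, 8.30% and 7.15% of all windows.

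Most Clstn1 tags came from its first start, a peak at chr4:148960541-148960620 on the plus strand, and this start was close to silent in the double mutant. Its levels were 0.0839, 0 and 0.297 CPM in double-mutant replicates 1, 2 and 3, against 17.1, 16.8 and 18.6 CPM in the FLT3-ITD replicates. In tags these were 1, 0 and 3 against 175, 99 and 212. The 0 in double-mutant replicate 2 allows a level of up to 0.215 CPM, the worth of 3 tags in that library. The means were 0.127 ± 0.153 CPM in the double mutant and 17.5 ± 0.964 CPM in FLT3-ITD cells (SD, n = 3 each), with every double-mutant library below every FLT3-ITD library. The log2 difference of the double mutant from FLT3-ITD, on the log2(CPM + 1) scale, was -4.04 (SE 0.18). On pooled tags, 4 against 486, the double mutant had 0.00629 of the FLT3-ITD level (exact 95% interval 0.00171 to 0.0162, counting error only). The peak is broad, with a span of 79 bp, wider than 91.6% of tested promoters.

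A second start of Clstn1 lay 40.8 kb further along the gene, at chr4:149001393-149001405, with a narrow span of 12 bp. It too was lower in the double mutant. It had 0.503, 0.429 and 1.09 CPM in the double-mutant replicates, against 4.97, 7.99 and 5.53 CPM in the FLT3-ITD replicates. The groups did not overlap, and double-mutant replicate 3 was the highest of its group at both starts. The means were 0.673 ± 0.361 CPM and 6.16 ± 1.60 CPM (SD, n = 3 each), a log2 difference of -2.10 (SE 0.22). Pooled tags, 23 against 161, gave a ratio of 0.109 (exact 95% interval 0.0673 to 0.170, counting error only).

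With the first start nearly absent, the remaining Clstn1 tags of the double mutant came mostly from the internal start, although its own tags were fewer too. The internal start gave 85.7% of all Clstn1 tags in double-mutant replicate 1 (6 of 7 tags, exact 95% interval 42.1 to 99.6%), 100% in replicate 2 (6 of 6, 54.1 to 100%) and 64.7% in replicate 3 (11 of 17, 38.3 to 85.8%). In the FLT3-ITD replicates it gave 21.9% (16.8 to 27.8%), 31.3% (24.0 to 39.4%) and 22.5% (17.7 to 27.8%). The double-mutant shares rest on few tags, and they restate the low level of the first start, for which the gene was chosen. The other 7 Clstn1 peaks with a tag stayed at or under 0.0989 CPM in the double mutant and 0.340 CPM in FLT3-ITD cells, with 3 and 16 pooled tags.

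**Figure D1:**
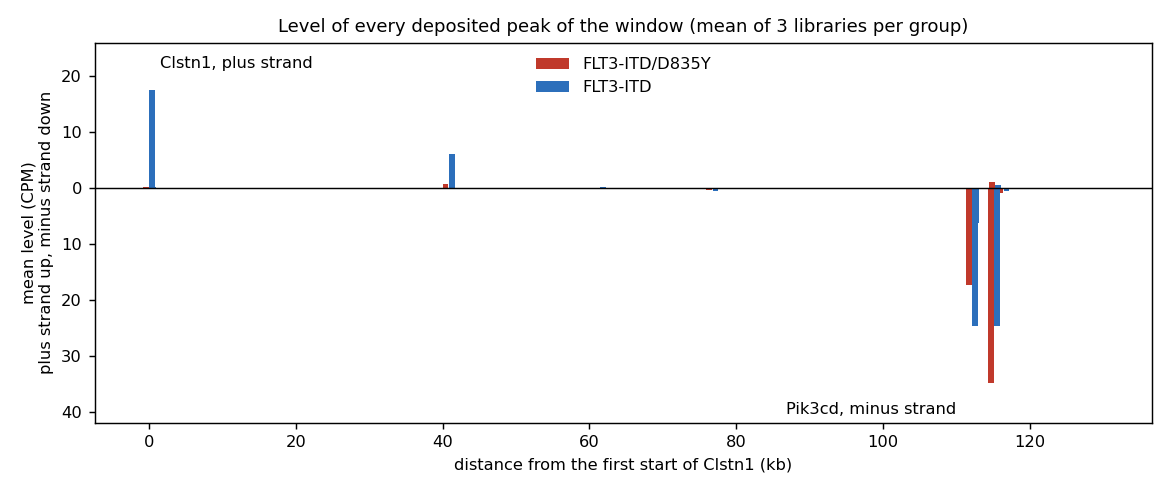
Mean level in CPM (3 libraries per group) of every deposited peak of the window, against the distance in kb from the first start of Clstn1; plus-strand peaks point up and minus-strand peaks down, and each pair of bars is drawn 0.45 kb to either side of its peak. At the Clstn1 starts the double mutant has 0.127 and 0.673 CPM and FLT3-ITD cells 17.5 and 6.16 CPM, and both groups have tall bars at the Pik3cd starts, where bars of peaks close together overlap.

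Summed over its 14 peaks, Clstn1 had 0.587, 0.429 and 1.68 CPM in the double-mutant replicates, against 22.7, 25.5 and 24.6 CPM in the FLT3-ITD replicates. The means were 0.899 ± 0.682 CPM and 24.3 ± 1.41 CPM (SD, n = 3 each), and the log2 difference was -3.79 (SE 0.28). The double-mutant level was 0.0346 of that in FLT3-ITD cells on pooled tags (30 against 663, exact 95% interval 0.0232 to 0.0499). In bulk cells, fewer cells with Clstn1 RNA and less Clstn1 RNA per cell cannot be told apart.

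Pik3cd, the lipid kinase subunit, was active in both groups at a similar summed level. Its 17 peaks summed to 59.5, 66.0 and 58.2 CPM in the double-mutant replicates, against 57.4, 55.1 and 59.9 CPM in the FLT3-ITD replicates, and these ranges overlapped. The means were 61.2 ± 4.15 CPM and 57.5 ± 2.43 CPM (SD, n = 3 each), with a log2 difference of 0.09 (SE 0.06). Pooled tags gave a ratio of 1.06 (exact 95% interval 0.997 to 1.14).

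Within Pik3cd, the starts differed in direction. The outer start, furthest upstream of the strong ones, at chr4:149075690-149075711 on the minus strand, had 34.0, 37.1 and 33.3 CPM in the double-mutant replicates, against 25.0, 21.8 and 27.4 CPM in the FLT3-ITD replicates. Every double-mutant library was above every FLT3-ITD library, with means of 34.8 ± 2.04 CPM and 24.7 ± 2.82 CPM (SD, n = 3 each) and a log2 difference of 0.48 (SE 0.13). The inner start, 2964 bp further along the gene at chr4:149072707-149072726, had 15.9, 20.0 and 16.0 CPM in the double-mutant replicates, against 25.2, 24.0 and 24.8 CPM in the FLT3-ITD replicates. Here every double-mutant library was below every FLT3-ITD library. The means were 17.3 ± 2.34 CPM and 24.6 ± 0.617 CPM (SD, n = 3 each), and the log2 difference was -0.49 (SE 0.13).

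A weaker start 23 bp upstream of the inner one, at chr4:149072749-149072763, did not follow it. It had 6.80, 6.94 and 7.61 CPM in the double-mutant replicates, against 5.56, 6.97 and 6.32 CPM in the FLT3-ITD replicates, and the groups overlapped. Its log2 difference was 0.16 (SE 0.16). A lower level in the double mutant was thus seen at the inner start and not at this weaker one, and the difference between these starts was not tested. The other 6 Pik3cd peaks with a tag reached at most 1.51 CPM in the double mutant and 1.19 CPM in FLT3-ITD cells, with 72 and 48 pooled tags.

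**Figure D2:**
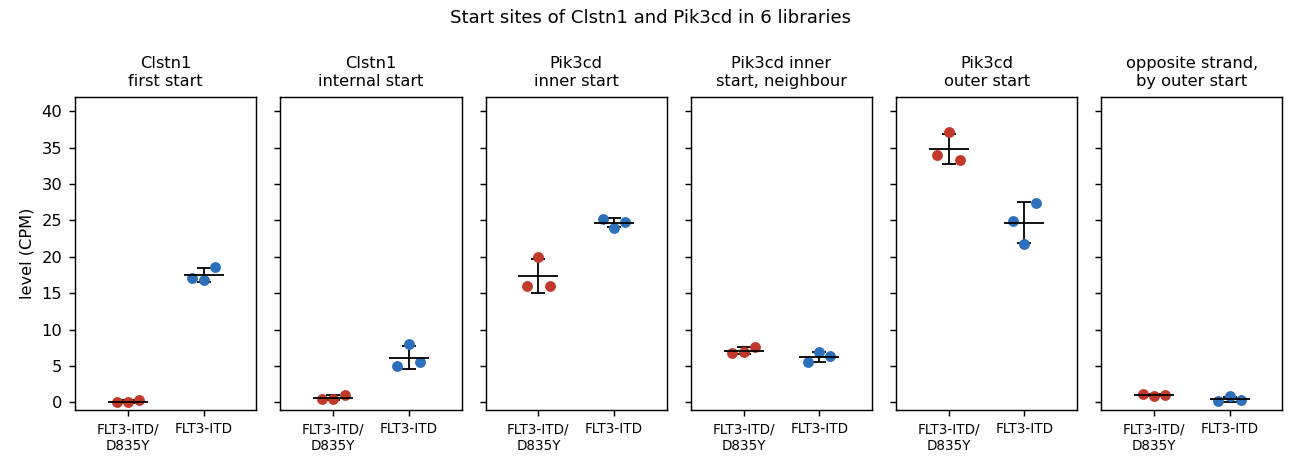
Level in CPM of the 5 tested start sites of Clstn1 and Pik3cd and of the opposite-strand peak beside the outer Pik3cd start; points are libraries, bars are means with SD (n = 3 each). The double-mutant points lie at 0 to 0.297 CPM at the first Clstn1 start, below the FLT3-ITD points at the inner Pik3cd start and above them at the outer one.

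The balance of the outer and inner Pik3cd starts thus differed between the groups. In the double mutant the outer start (33.3 to 37.1 CPM) stood clear of the inner one taken alone (15.9 to 20.0 CPM). In FLT3-ITD cells the outer (21.8 to 27.4 CPM) and the inner taken alone (24.0 to 25.2 CPM) could not be told apart by their spread. The ratio of outer to inner was 2.13, 1.85 and 2.08 in the double-mutant replicates, against 0.992, 0.908 and 1.10 in the FLT3-ITD replicates. As a share of all Pik3cd tags, the outer start gave 57.1% (exact 95% interval 53.4 to 60.8%), 56.3% (53.0 to 59.5%) and 57.2% (53.1 to 61.3%) in the double mutant. In FLT3-ITD cells it gave 43.5% (39.4 to 47.6%), 39.5% (34.1 to 45.1%) and 45.7% (41.9 to 49.5%). The means were 56.9 ± 0.509% and 42.9 ± 3.13% (SD, n = 3 each), and the intervals of the libraries did not overlap between groups. The inner start with its weaker neighbours at 149072749 and 149072811, the inner cluster, gave 39.6%, 41.9% and 41.8% of Pik3cd tags in the double-mutant replicates. In the FLT3-ITD replicates the cluster gave 54.8%, 56.5% and 53.0%. Counted as a cluster, the inner site was thus below the outer start in the double mutant and above it in FLT3-ITD cells. A ratio within a library is free of the scaling to a common total. Among same-strand pairs of called promoters with 1000 to 5000 bp between them in the whole data, 38 of 374 (10.2%) moved in opposite directions, a count that includes this pair.

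**Figure D3:**
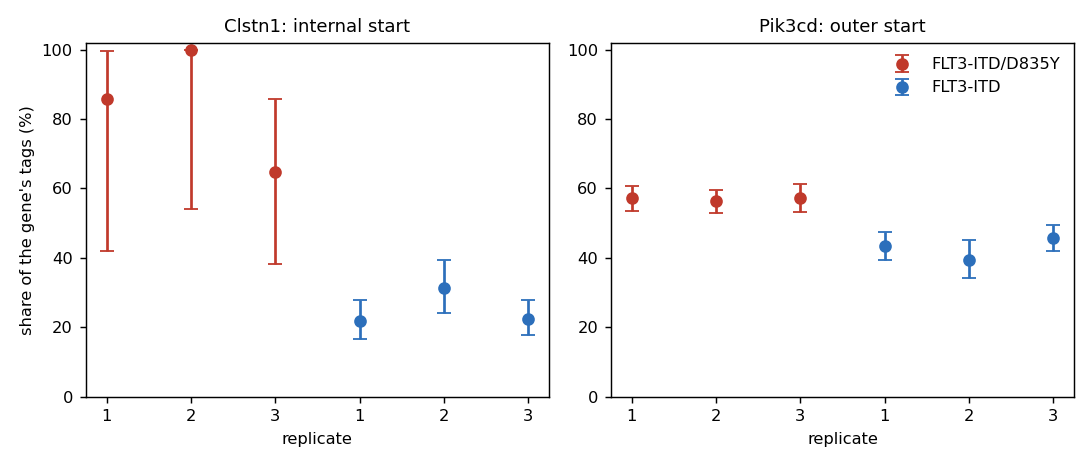
Share of the tags of a gene, in percent, that came from the internal start of Clstn1 (left) and from the outer start of Pik3cd (right), by library, with exact 95% binomial intervals. The double-mutant shares are 64.7 to 100% and 56.3 to 57.2%, and the FLT3-ITD shares 21.9 to 31.3% and 39.5 to 45.7%.

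On the opposite strand, 107 bp upstream of the outer Pik3cd start, lay the only peak of the window that belonged to neither gene, at chr4:149075818-149075859. It points away from Pik3cd, as upstream RNAs of divergent promoters do. It had 1.17, 0.858 and 1.09 CPM in the double-mutant replicates, against 0.195, 0.850 and 0.351 CPM in the FLT3-ITD replicates. The lowest double-mutant value and the highest FLT3-ITD value are nearly equal, and both are few tags (12 and 5). On pooled tags, 37 against 11, the ratio was 2.57 (exact 95% interval 1.28 to 5.59, counting error only). The peak was too low to enter the main fit, and without the filter on low values it did not pass (limma adjusted p = 0.14). Like the outer start beside it, this peak had a higher mean in the double mutant, 1.04 ± 0.163 CPM and 0.465 ± 0.342 CPM (SD, n = 3 each).

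Set side by side within each library, the neighbours were far apart in the double mutant. Pik3cd had 101, 154 and 34.6 times the summed level of Clstn1 in the double-mutant replicates, against 2.53, 2.16 and 2.44 times in the FLT3-ITD replicates. Double-mutant replicate 3, with the most Clstn1 tags of its group, had the lowest ratio of the 3. Clstn1 gave 0.978%, 0.647% and 2.81% of the tags of the pair in the double mutant, against 28.3%, 31.6% and 29.1% in FLT3-ITD cells. The log2 level of Clstn1 minus that of Pik3cd was lower in the double mutant by a difference of -3.88 (SE 0.33), nearly all of it from Clstn1.

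The promoters around the pair differed between the groups by far less than the Clstn1 starts, which follows largely from the choice of Clstn1 for its fall. Of the 19162 promoters tested, 5 had a log2 difference as low as that of the first Clstn1 start, itself included. On the log2(CPM + 1) scale a promoter with a low level in FLT3-ITD cells cannot fall this far, so the count depends on level too. With a pseudocount of 0.5 the log2 difference of this start was -4.87. RefSeq places Lzic and Ctnnbip1 before Clstn1, and Tmem201 and Slc25a33 beyond Pik3cd, in the order of protein-coding genes of GRCm38.p6; peaks were not assigned to them. Within 1 Mb on either side of the window from 148950000 to 149100000, 36 promoters were tested. Of these 4 fell (limma, p adjusted over all 19162), 1 of 22 before and 3 of 14 beyond, and 0 rose, with 0 higher and 8 lower at an unadjusted p under 0.05. The 4 are 11.1% of the flanking promoters. Of all promoters tested 24.4% were called, 14.1% higher and 10.4% lower, so the share that fell was near that of all promoters. The absence of rises beside 14.1% was not tested. For the counts at an unadjusted p no share over all promoters was taken, and nothing is read from them. Their log2 differences lay between -0.81 and 0.38, with a median of -0.17 (0.14 for the 11 within 0.25 Mb) beside 0.05 over all tested promoters, while those of the Clstn1 starts were -4.04 and -2.10. The number that fell was 7 without double-mutant replicate 2, 6 with TMM scaling, and 2 without FLT3-ITD replicate 1 or without FLT3-ITD replicate 3.

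The tested promoters nearest to the pair did not pass. On the Clstn1 side, the nearest strong one, at chr4:148892325-148892386, had 8.11 ± 0.236 CPM in the double mutant and 9.45 ± 2.18 CPM in FLT3-ITD cells (SD, n = 3 each; limma adjusted p = 0.50). The weaker peaks beside it, at 148892236 and 148892397, had adjusted p-values of 0.68 and 0.45 in limma. On the Pik3cd side, the minus-strand promoter at chr4:149112066-149112163, 12.1 kb outside the window, had 11.6 ± 0.995 CPM and 9.17 ± 0.587 CPM (adjusted p = 0.14, limma). The next, at 149148320 and 149148347, had adjusted p-values of 0.57 and 0.21 by limma. The promoters that fell most lay far out: that at chr4:147966201-147966214 had 1.48 ± 0.220 CPM in the double mutant and 3.33 ± 0.404 CPM in FLT3-ITD cells (limma adjusted p = 0.0062). At chr4:149943647-149943707 the levels were 5.61 ± 1.11 CPM in the double mutant and 10.3 ± 0.750 CPM in FLT3-ITD cells (limma adjusted p = 0.0048), and at chr4:149745966-149746036 they were 3.37 ± 0.647 CPM and 5.78 ± 0.895 CPM (limma adjusted p = 0.024).

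**Figure D4:**
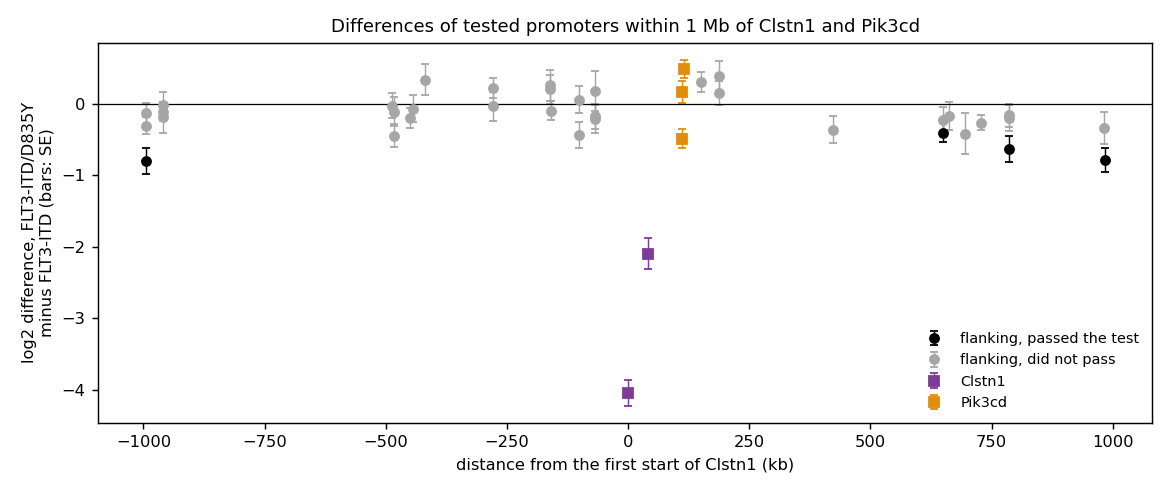
Log2 difference (FLT3-ITD/D835Y minus FLT3-ITD, bars are SE) of the tested promoters of Clstn1, of Pik3cd and of the 1 Mb on either side, against the distance in kb from the first start of Clstn1. The Clstn1 starts lie at -4.04 and -2.10, the Pik3cd starts between -0.49 and 0.48, and the 36 flanking promoters between -0.81 and 0.38.

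The promoters elsewhere with the pattern most like these starts were found by the root mean square difference of centred log2(CPM + 1) values over the 6 libraries, searched over the 10246 promoters that averaged 5 CPM or more. Closest to the first Clstn1 start were a minus-strand promoter at chr9:103402685-103402731, with 0.146 ± 0.0659 CPM in the double mutant and 14.9 ± 1.25 CPM in FLT3-ITD cells (distance 0.15), and promoters at chr5:91201563-91201577 (distance 0.29) and chrX:54558014-54558065 (distance 0.34). Closest to the outer Pik3cd start was the plus-strand promoter at chr19:6085053-6085146, with 73.7 ± 4.48 CPM in the double mutant and 51.6 ± 5.98 CPM in FLT3-ITD cells (distance 0.02). It was followed by chr1:123464472-123464482 and chr2:167514456-167514473, both at a distance of 0.04. Such a search finds the nearest of many promoters and says nothing of what they share.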

How the data were processed

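Ba/F3 cells of 2 groups, with 3 libraries each, were profiled by CAGE. The deposited unit is CPM: the authors scaled the tags per peak to a common total of 1000000 per library. The submitters' processing notes name TopHat2 2.0.14, edgeR 3.24.3, hg19 and mm9, with no roles. Every value was a whole multiple of the smallest value above 0 in its library (100% within 0.01 of a multiple), which put depth at 5884258 to 13977941 tags and 1 tag at 0.0715 to 0.170 CPM. Tag numbers in the text come from this step. Exact 95% binomial intervals cover counting error only.

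All promoters with at least 1 CPM in at least 3 libraries entered a fit on log2(CPM + 1) values with group as the single factor (limma 3.58.1, trended and robust variances, R 4.3.3) and Benjamini-Hochberg adjustment over 19162 promoters. All p-values are two-sided and reflect only how these libraries vary, possibly for technical reasons. The fit was also run on simulated data, with the same dispersion for every promoter and changes planted only above a minimum mean level. The simulation therefore does not cover promoters nearly absent in a group, nor the real spread between replicates. TMM factors came from edgeR 4.0.16. The genes and lists were chosen with earlier results of these data known. Named were member peaks with a mean of at least 1 CPM in either group, the 3 nearest flanking promoters on each side, the 3 with the largest called change each way, and the 3 most alike elsewhere. Lists of the phosphoinositide 3-kinase pathway, of calsyntenin partners and of pro-B cell markers were not used, since no annotation of mm9 was at hand; the labelled cell type was therefore not checked.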

Additional observations from a re-analysis of the deposited data

How the results depend on the processing

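The lower summed Clstn1 level kept its direction under every setting tried. With the gene chosen for this fall and the groups so far apart, no other outcome was possible, and only the size of the difference is informative. Its log2 difference of -3.79 was -4.25 with a pseudocount of 0.5 and -3.61 to -4.07 with 1 library left out, and the other settings moved it by less than the spread between replicates. For Pik3cd the summed difference of 0.09 was 0.48 when only its highest peak, the outer start, was taken, by construction, and 0.03 to 0.12 with 1 library left out. The contrast of the pair, -3.88, was -4.34 with a pseudocount of 0.5, -4.53 with the highest peak of each gene, and -3.65 to -4.19 with 1 library left out. With the replicate number as a block (replicate block) the differences were the same by construction, -3.79 and 0.09, and 4109 promoters were called in place of 4680. The deviations from the group means in libraries of the same number had correlations of -0.01, 0.02 and 0.19, so the numbers were not taken to pair them. The called promoters numbered 3076 when FLT3-ITD replicate 2 was left out and 5209 when double-mutant replicate 2 was, the extremes, and TMM scaling gave 4907, of which 2451 were higher and 2456 lower, in place of 2695 and 1985. Of the member calls, which carry no test, that of the inner Pik3cd start was lost in 4 of 11, without double-mutant replicate 1 or 3 and without FLT3-ITD replicate 1 or 3, and that of the outer start in 1 of 11, without FLT3-ITD replicate 2; the direction of each was kept. The 4 flanking promoters called were 2 to 7 with 1 library left out. They were 0 of 11 within 0.25 Mb (limma, 1 at an unadjusted p under 0.05) and 25 of 86 within 3 Mb (11 higher and 14 lower), beside 24.4% of all promoters tested. The median difference of the flanks, -0.17, was 0.14 within 0.25 Mb and -0.11 within 3 Mb, widths chosen after seeing the data. The planned edgeR and DESeq2 tests were not run. The rule set for them gives no verdict where the worth of 1 tag is close to a round decimal, as in double-mutant replicate 3 (0.0989 CPM), although the values of that library were whole multiples of it. Depth limits the Clstn1 values of the double mutant, which rest on 6 to 17 tags per library.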
